A study of Mus musculus with 2 samples.

Results

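The receptors described here are 5 G protein-coupled chemoattractant receptors of myeloid cells, Fpr1, Fpr2, C5ar1, Ltb4r1 and Ptafr. They were taken by name, and all 5 were found among the 13211 genes listed for at least 1 of 2 single-cell RNA-sequencing libraries of mouse bone marrow. One library came from Col1a1fspKO mice (Fsp1-Cre;Col1a1flox/flox), in which a Cre driven by the Fsp1 (S100a4) promoter deletes the floxed Col1a1 gene of type I collagen. The other came from wild-type littermates (WT), which carry the same floxed Col1a1 alleles and no Cre. All mice were 2 months old and untreated. Marrow was flushed from the femur and tibia, the cells of 2 mice were pooled per genotype, and live cells were sorted without further fractionation. The Col1a1fspKO library held 1309 cells and the WT library 1169. Each genotype is therefore a single library, no test between genotypes was possible, and every interval given here covers counting error only.

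Neutrophils find bacteria and damaged tissue by sensing chemical gradients. Fpr1 and Fpr2 bind N-formyl peptides, which are released by bacteria and mitochondria, and C5ar1 binds the complement fragment C5a. Ltb4r1 is the high-affinity receptor for leukotriene B4 and Ptafr is the receptor for platelet-activating factor, both lipids made by activated leukocytes. Developing neutrophils acquire these receptors in the bone marrow before they are released into blood.

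In the GENCODE M21 annotation of GRCm38, the build (mm10) named in the submitters' processing notes, Fpr1 occupies chr17:17876471-17883940 on the minus strand and Fpr2 chr17:17887824-17893952 on the plus strand. The pair are neighbours that point away from each other, with 3883 bases between their starts. C5ar1 lies at chr7:16246743-16259540 on the minus strand, Ltb4r1 at chr14:55765962-55768494 and Ptafr at chr4:132564067-132582683, both on the plus strand. C5ar1 and Ltb4r1 each have a neighbouring second receptor for the same ligand, with 2588 bases between C5ar2 and C5ar1 and 823 bases between Ltb4r2 and Ltb4r1. Fpr2 shares 48 of its 1296 exonic bases with the overlapping gene Fpr3, and the formyl peptide receptors of the mouse are a family of close copies. How reads shared between these copies were assigned is not given in the sources used here, so the counts of Fpr2 are uncertain to that extent.

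All 5 receptors matched an entry in RefSeq's table of promoters (GRCm38.p6). The 250 bases before the annotated start are shown for the neighbours Fpr1 and Fpr2, which differed in when along neutrophil maturation their transcripts were highest, and for Ltb4r1, which was the only one of the 5 at a lower level in mature than in immature neutrophils in both libraries. They are chr17:17883940-17884189 (minus strand), chr17:17887574-17887823 (plus strand) and chr14:55765712-55765961 (plus strand). Capitals mark matches on either strand to 4 motifs, GAGGAAG of the myeloid factor PU.1, TTNNGNAA of the C/EBP factors, the GC box GGGCGG and the TATA box TATAAA.
Fpr1: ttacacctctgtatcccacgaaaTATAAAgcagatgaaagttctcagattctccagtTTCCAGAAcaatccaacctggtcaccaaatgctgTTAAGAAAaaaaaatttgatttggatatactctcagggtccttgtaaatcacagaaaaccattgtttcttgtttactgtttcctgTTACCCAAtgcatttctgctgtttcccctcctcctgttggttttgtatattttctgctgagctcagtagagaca
Fpr2: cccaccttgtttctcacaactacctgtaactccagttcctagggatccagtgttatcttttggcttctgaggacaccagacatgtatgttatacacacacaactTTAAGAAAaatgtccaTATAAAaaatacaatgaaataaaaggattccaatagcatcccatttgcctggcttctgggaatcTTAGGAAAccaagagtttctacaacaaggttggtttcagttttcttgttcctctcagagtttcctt
Ltb4r1: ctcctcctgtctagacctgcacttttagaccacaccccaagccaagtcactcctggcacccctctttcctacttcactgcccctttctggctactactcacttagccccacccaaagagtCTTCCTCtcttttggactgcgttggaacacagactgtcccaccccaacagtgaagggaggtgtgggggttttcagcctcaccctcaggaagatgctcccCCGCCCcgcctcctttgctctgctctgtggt
The C/EBP letters were found in Fpr1, Fpr2 and C5ar1 (3 of 5 receptors) and in 36.8% of all 32851 promoters of the table. The PU.1 letters were found in Ltb4r1 alone among the 5 and in 10.6% of all promoters. The GC box stood in Ltb4r1 and Ptafr (32.7% of all promoters) and TATAAA in Fpr1 and Fpr2 (12.4%), but in neither of the latter close to the start (221 and 124 bases before it). These are matches of letters and were not tested for binding.

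The 2478 cells fell into 15 clusters, and the clustering did not use the 5 receptors. Clusters were named with the suffix "-like" from fixed marker genes. Mature neutrophil-like cells (led by Retnlg; 128 cells in Col1a1fspKO and 51 in WT), maturing neutrophil-like cells (led by Mmp8 and Mmp9; 143 and 100) and immature neutrophil-like cells (led by Orm1 and Ltf; 156 and 156) were distinguished. Another neutrophil cluster, cluster 4 (led by Fcnb; 88 and 120), held more markers of immature neutrophils than of preneutrophils among its leading genes and is given by its number. Together these 4 clusters held 515 cells of Col1a1fspKO and 427 of WT. The order used below, from cluster 4 through immature and maturing to mature cells, follows those markers and not a measured lineage. Fpr2 itself was among the 10 leading genes of the maturing cluster, as a description of a cluster that was formed without it. The libraries shared 2 cell barcodes, and the total was 8647722 UMIs (unique molecular identifiers, each counting 1 captured transcript) in Col1a1fspKO and 8624469 in WT. Levels are given as counts per 1000000 UMIs of the same cells (CPM) with exact 95% Poisson intervals.

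The receptors were mainly transcripts of neutrophils. The 4 neutrophil clusters, with 38.0% of all cells, held 88.6% of the 740 UMIs of C5ar1, 86.7% of the 180 UMIs of Fpr1 and 86.3% of the 1109 UMIs of Fpr2. For the lipid receptors the share was smaller, 69.0% of the 1081 UMIs of Ltb4r1 and 60.3% of the 325 UMIs of Ptafr. The 3 monocyte clusters, with 21.9% of all cells, held 22.4% of the UMIs of Ltb4r1 and 28.3% of those of Ptafr, against 5.81% to 7.66% of those of the other 3 receptors.

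Fpr1, the high-affinity formyl peptide receptor, was the receptor of late neutrophils. In Col1a1fspKO its level was 4.79 CPM (4 UMIs) in cluster 4, 9.78 CPM (7 UMIs) in immature cells, 64.8 CPM (34 UMIs) in maturing cells and 133 CPM (55 UMIs) in mature cells. In WT the same clusters held 2.76, 9.53, 69.3 and 111 CPM, from 3, 7, 26 and 20 UMIs. The libraries thus had the same order of stages. Mature cells held 13.6 times (95% interval 6.18 to 35.4) the level of immature cells in Col1a1fspKO and 11.7 times (4.73 to 32.6) in WT. As a fold, the larger step lay between immature and maturing cells, which differed 6.63-fold (2.89 to 17.7) and 7.27-fold (3.07 to 19.8). The last step, from maturing to mature cells, was 2.05-fold (1.32 to 3.25) in Col1a1fspKO, and in WT its interval included 1 (1.60-fold, 0.85 to 2.98).

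Fpr2, the formyl peptide receptor with the broader set of ligands, was high earlier. In Col1a1fspKO it stood at 53.9 CPM in cluster 4, 257 CPM in immature, 311 CPM in maturing and 300.1 CPM in mature cells. In WT the values were 68.1, 232, 371 and 322 CPM. Immature cells held 4.77 times (3.43 to 6.77) the level of cluster 4 in Col1a1fspKO and 3.4 times (2.57 to 4.53) in WT. Beyond the immature stage the libraries were less alike. Maturing over immature cells gave a ratio of 1.60 (1.27 to 2.01) in WT and 1.21 (0.97 to 1.5) in Col1a1fspKO, and mature over immature cells 1.39 (1.01 to 1.88) and 1.17 (0.92 to 1.47). From maturing to mature cells the interval included 1 in both libraries. The neighbours Fpr1 and Fpr2 thus had their largest fold step in CPM at different stages in both libraries. For Fpr2 it was from cluster 4 to immature cells and for Fpr1 from immature to maturing cells.

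C5ar1, the receptor for C5a, differed in CPM at each step up to the mature stage. Its level in Col1a1fspKO was 26.3 CPM in cluster 4, 141 CPM in immature, 208 CPM in maturing and 395 CPM in mature cells. In WT it was 55.3, 117, 168 and 289 CPM. Maturing cells held 1.47 times (1.11 to 1.95) the level of immature cells in Col1a1fspKO and 1.43 times (1.02 to 2.01) in WT. The last step, from maturing to mature cells, was 1.90-fold (1.48 to 2.44) and 1.72-fold (1.17 to 2.52). Mature cells thus exceeded immature cells 2.80-fold (2.17 to 3.62) and 2.47-fold (1.71 to 3.52). No other receptor of the set differed in CPM beyond counting error at all 3 steps in both libraries, and counted per cell C5ar1 did not either.

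Ltb4r1 was the early receptor of the set. It was already at 132 CPM in cluster 4 of Col1a1fspKO, and at 92.1 CPM in that of WT. In immature and maturing cells it was 230.5 and 233 CPM in Col1a1fspKO and 146 and 173 CPM in WT. In mature cells it was 133 and 122 CPM. Mature cells of Col1a1fspKO thus held 0.58 times (0.42 to 0.79) the level of immature cells, whereas in WT the interval of this ratio included 1 (0.84, 0.50 to 1.34).

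Ptafr differed less between stages, on few UMIs. In Col1a1fspKO it was at 27.5 CPM in cluster 4, 37.7 CPM in immature, 55.3 CPM in maturing and 92.0 CPM in mature cells, and in WT at 22.1, 42.2, 34.7 and 61.1 CPM. Mature cells exceeded cluster 4 by 3.34-fold (1.94 to 5.87) in Col1a1fspKO and 2.76-fold (1.22 to 5.86) in WT. Against immature cells the ratio was 2.44 (1.45 to 4.15) in Col1a1fspKO, and in WT it rested on 11 and 31 UMIs and included 1 (1.45, 0.66 to 2.96).

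**Figure D1:**
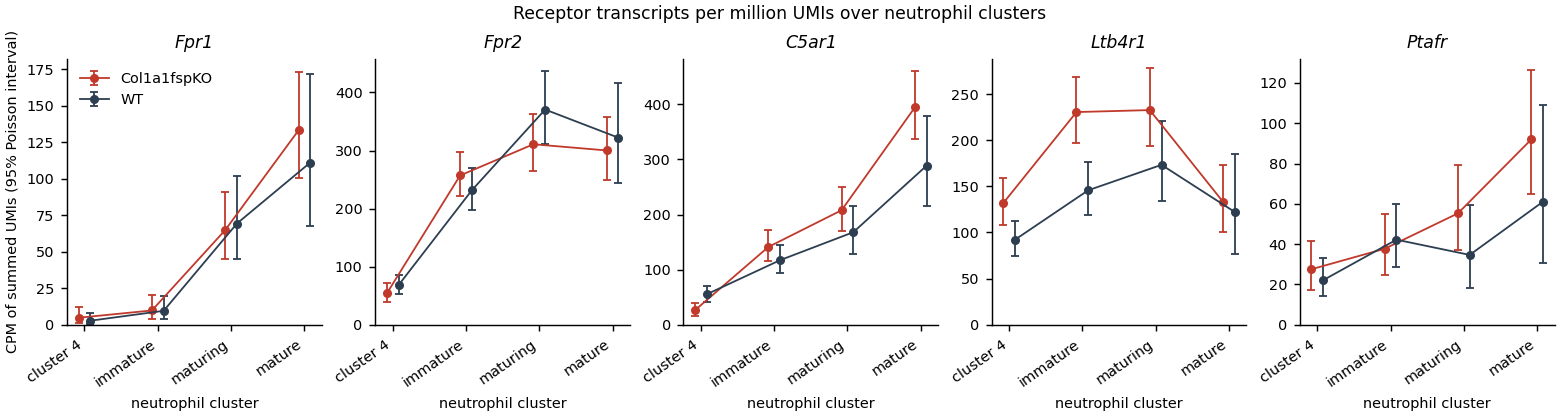
Level of each receptor (y axis, CPM of summed UMIs) over the neutrophil clusters ordered from cluster 4 to mature cells (x axis), with points for Col1a1fspKO and WT and bars for exact 95% Poisson intervals. Fpr1 is near 0 until the maturing stage, Fpr2 is high from the immature stage on (in WT 232 CPM in immature and 371 CPM in maturing cells), C5ar1 is highest in mature cells, and Ltb4r1 is lower in mature than in maturing cells (133 against 233 CPM in Col1a1fspKO and 122 against 173 CPM in WT).

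The scale mattered for these profiles, because mature neutrophils had fewer UMIs per cell. The median number of UMIs was 8375.5 per cell in cluster 4 of Col1a1fspKO and 3048.5 in its mature cells, and 8566.5 and 3335 in WT. Counted as UMIs per cell, Ltb4r1 was at 1.25 in cluster 4, 1.06 in immature, 0.853 in maturing and 0.430 in mature cells of Col1a1fspKO. In WT the same counts were 0.833, 0.686, 0.650 and 0.431. Per cell, mature cells thus held 0.34 times (0.24 to 0.48) the Ltb4r1 transcripts of cluster 4 in Col1a1fspKO and 0.52 times (0.31 to 0.83) in WT, where the ratios of CPM were 1.01 (0.72 to 1.41) and 1.33 (0.80 to 2.12). Ptafr per cell was at 0.261 UMIs in cluster 4, 0.173 in immature, 0.203 in maturing and 0.297 in mature cells of Col1a1fspKO, where mature exceeded immature cells 1.72-fold (1.02 to 2.92). In WT it was at 0.2, 0.199, 0.13 and 0.216 UMIs per cell, and the same ratio included 1 (1.09, 0.49 to 2.22). C5ar1 and Fpr1 were higher in mature than in immature cells on both scales, C5ar1 by 1.97-fold (1.53 to 2.55) and 1.85-fold (1.28 to 2.64) per cell, Fpr1 by 9.58-fold (4.35 to 24.9) and 8.74-fold (3.55 to 24.5). The earlier steps of C5ar1 were not all kept per cell. In Col1a1fspKO, immature over cluster 4 gave 2.59 (1.62 to 4.31), whereas WT gave 1.10 (0.78 to 1.56). For the next step, maturing over immature cells, the ratios were 1.18 (0.89 to 1.56) and 1.14 (0.81 to 1.60). The last step remained, at 1.67-fold (1.30 to 2.15) and 1.62-fold (1.10 to 2.37). Fpr2 per cell was 0.82 times (0.65 to 1.04) and 1.04 times (0.76 to 1.41) the immature value in mature cells, and in WT maturing cells it was 1.28 times (1.01 to 1.61) that value.

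**Figure D2:**
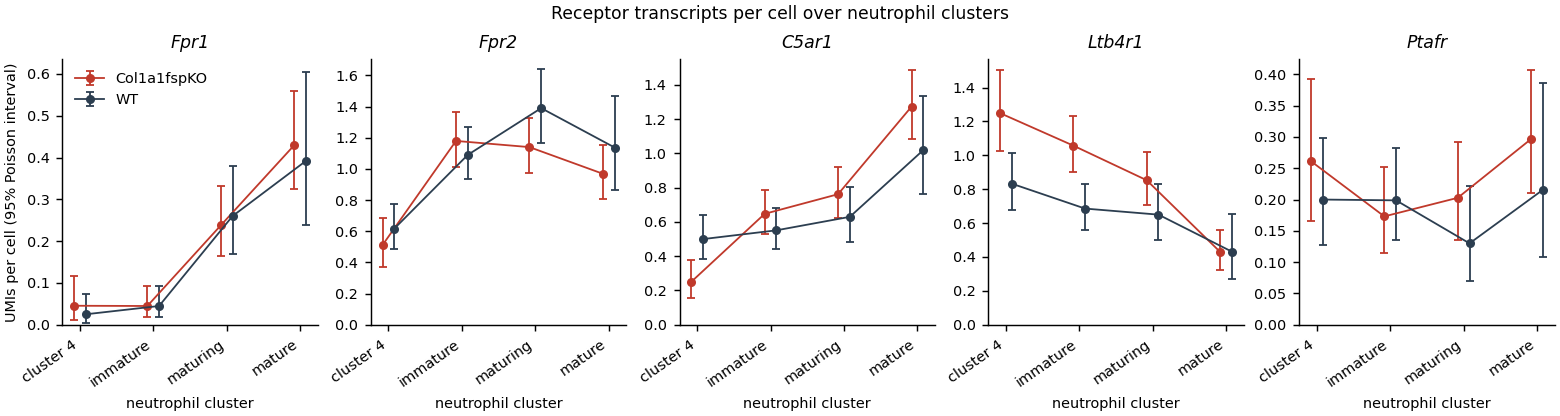
The same receptors, clusters and libraries as UMIs per cell (y axis, exact 95% Poisson intervals). Ltb4r1 is lowest in mature cells in both libraries (0.430 and 0.431 UMIs per cell), while Fpr1 and C5ar1 are highest there.

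Single cells were compared after each had been thinned to 2500 UMIs, below the shallowest cell of either library, so that none was left out. The thinning was a single random draw. Values after thinning also carry the error of that draw, which their intervals do not cover. In mature cells a UMI of C5ar1 was found in 65.6% of cells of Col1a1fspKO (73.4% before thinning) and 45.1% of WT (64.7% before). For Fpr2 the thinned share was 47.7% and 52.9%, for Ltb4r1 32% and 27.5%, for Fpr1 29.7% and 17.6%, and for Ptafr 20.3% and 15.7%. Almost every mature cell showed at least 1 of the 5 receptors, 96.9% of 128 cells in Col1a1fspKO (Clopper-Pearson 95% interval 92.2 to 99.1%) and 94.1% of 51 cells in WT (83.8 to 98.8%). The share was 88.1% and 92.0% in maturing cells, 78.2% and 73.1% in immature cells and 47.7% and 46.7% in cluster 4. In erythroid-like cells, which should lack these receptors, it was 2.11% of 95 cells and 3.16% of 95 cells after the same thinning, and their median depths before it were 9422 and 11812 UMIs.

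Whether the receptors marked the same or separate mature cells was examined by counting pairs. Among the 128 thinned mature cells of Col1a1fspKO, a UMI of Fpr1 was found in 32.8% of the 61 cells with Fpr2 (21.3 to 46.0%) and 26.9% of the 67 cells without it (16.8 to 39.1%). For C5ar1 the shares were 59.0% (45.7 to 71.4%) and 71.6% (59.3 to 82.0%) of the same cells. The intervals overlapped in both cases, and whether the receptors marked separate cells was not tested. In WT, Fpr1 was found in 1 of 27 mature cells with Fpr2 (3.70%, 0.0937 to 19.0%). It was found in 8 of the 24 without Fpr2 (33.3%, 15.6 to 55.3%), the opposite order to Col1a1fspKO. The WT intervals overlapped little, and overlap alone does not show that shares are equal.

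Among monocytes, cluster 0 (led by Wfdc17; 174 and 189 cells) held most UMIs of each receptor. Its level of Ltb4r1 was 96.0 CPM in Col1a1fspKO and 66.7 CPM in WT, and that of Fpr2 38.0 and 43.5 CPM. C5ar1 was at 14.8 and 26.3 CPM, Ptafr at 19.0 and 46.5 CPM, and Fpr1 at 3.16 and 7.07 CPM from 3 and 7 UMIs. Over both libraries, the earlier monocyte clusters 9 (led by Ass1) and 11 (led by Klf4) held 35.5 and 52.5 CPM of Ltb4r1 and 12.1 and 16.8 CPM of Ptafr, but 5 UMIs or fewer of each of Fpr1, Fpr2 and C5ar1. For the lipid receptors the order of these clusters depended on the scale. Per cell, Ltb4r1 in cluster 0 was 0.97 times (0.59 to 1.66) the value of cluster 11 in Col1a1fspKO and 0.52 times (0.33 to 0.84) in WT, where the ratios of CPM were 2.16 (1.32 to 3.69) and 1.10 (0.69 to 1.79). Ptafr per cell was 0.77 times (0.27 to 2.64) and 0.97 times (0.48 to 2.16) the value of cluster 11. Against mature neutrophils, the CPM of Ltb4r1 in all monocytes gave ratios of 0.52 (0.37 to 0.72) for Col1a1fspKO and 0.45 (0.28 to 0.75) for WT. Per cell the intervals included 1, with ratios of 1.18 (0.85 to 1.64) and 0.90 (0.56 to 1.49). Fpr2 per cell was at 0.16 (0.11 to 0.23) and 0.14 (0.09 to 0.21) of its value in mature neutrophils.

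Free RNA and mixed droplets can bring neutrophil transcripts into other cells. S100a8, the abundant calprotectin transcript of neutrophils, is therefore given beside the receptors. S100a8 stood at 206389 and 204483 CPM over all neutrophil clusters and at 6036 and 7717 CPM in cluster 0. Fpr2 stood at 207 and 186 CPM over all neutrophil clusters and at 38.0 and 43.5 CPM in cluster 0. In B cell cluster 6 (led by Ms4a1) S100a8 reached 21626 and 26899 CPM, beside 26.2 and 51.3 CPM of Fpr2 and 18.4 and 19.2 CPM of C5ar1. Fpr1 was at 18.4 and 6.41 CPM there (7 and 2 UMIs), and at 9.78 and 9.53 CPM in immature neutrophils. The part of neutrophil RNA in these monocyte and B cell values was not tested.

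Outside neutrophils, monocytes and B cell cluster 6, 2 single receptors stood apart. Plasmacytoid dendritic cell-like cells held 39.1 CPM of Ptafr (20.8 to 66.8, 13 UMIs in 11 of 73 cells over both libraries), with 0 UMIs of Fpr1 and Ltb4r1, 2 of Fpr2 and 1 of C5ar1. S100a8 was at 1454 and 1257 CPM in these cells. Ltb4r1 was found in basophil, mast cell or eosinophil-like cells at 55.6 CPM (26.7 to 102, 10 UMIs in 8 of 27 cells) and in granulocyte-monocyte progenitor-like cells at 29.4 CPM (21.8 to 38.9, 49 UMIs). In T and NK cell-like cells there was no UMI of Fpr1 or Fpr2 in 90 cells, which allows a share of cells with a UMI of up to 3.33% (3 counts of the total).

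**Figure D3:**
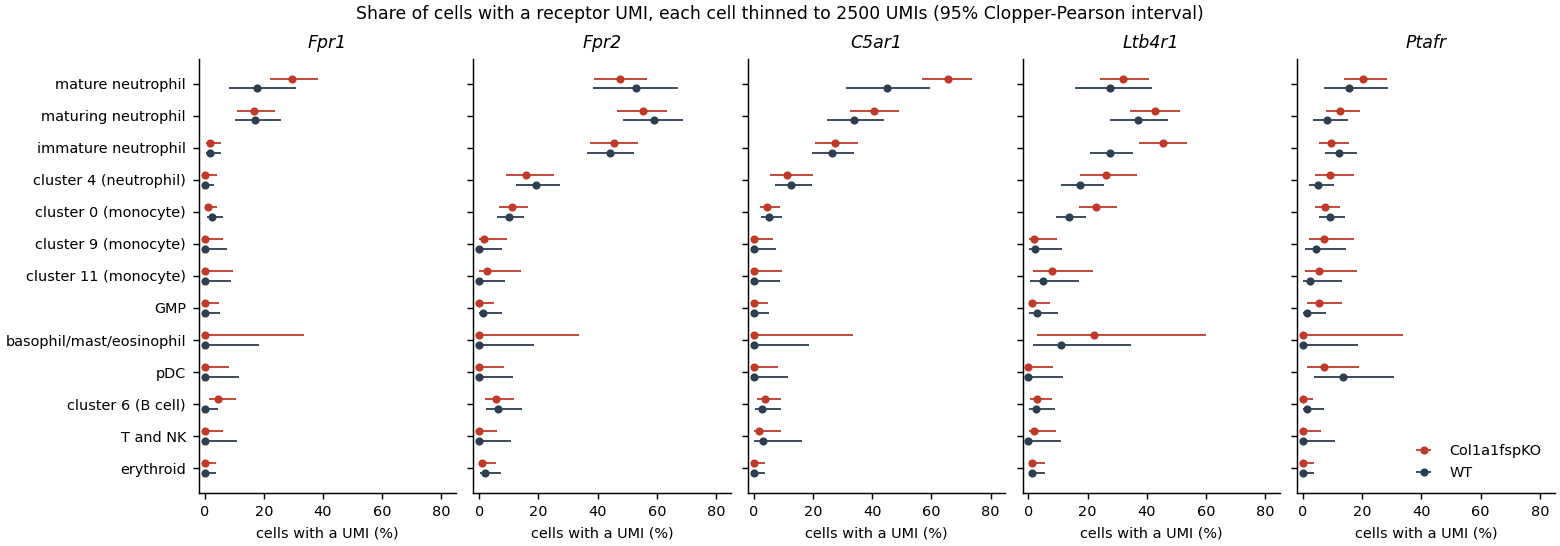
Share of cells with a UMI of each receptor (x axis, percent, cells thinned to 2500 UMIs) in 13 clusters or classes (y axis), with points for Col1a1fspKO and WT and bars for 95% Clopper-Pearson intervals. Fpr1, Fpr2 and C5ar1 are highest in neutrophil clusters. B cell cluster 6 also held UMIs of each, with Fpr2 at 26.2 and 51.3 CPM before thinning. Ltb4r1 reaches further into monocytes, and Ptafr is at 6.98% and 13.3% in plasmacytoid dendritic cell-like cells (pDC). GMP stands for granulocyte-monocyte progenitor-like cells.

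Against all other cells, mature neutrophil-like cells held at least 2-fold more of 4 of the 5 receptors in both libraries (Fpr1, Fpr2, C5ar1 and Ptafr). Of 11109 genes with at least 20 UMIs, 7.69% reached this in Col1a1fspKO and 8.76% in WT, and 5.22% in both. The ratio over both libraries was 20.1 for Fpr1, 11.5 for C5ar1, 5.52 for Fpr2, 4.99 for Ptafr and 2.16 for Ltb4r1, which was at 1.90 in Col1a1fspKO and 2.41 in WT. The median over the receptors was 5.52 and that over all genes 0.26.

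The comparison of Col1a1fspKO with WT asked whether loss of collagen I in Fsp1+ cells went with other receptor levels in marrow cells. Over all neutrophil clusters, the level of Fpr1 was 40.2 CPM in Col1a1fspKO against 23.6 CPM in WT, a ratio of 1.70 (1.22 to 2.41). C5ar1 was at 159 and 110 CPM (1.44, 1.23 to 1.70), Ltb4r1 at 182 and 124 CPM (1.47, 1.26 to 1.71) and Ptafr at 47.0 and 33.3 CPM (1.41, 1.05 to 1.91). Fpr2 was at 207 and 186 CPM (1.12, 0.98 to 1.27). In CPM Fpr1 alone passed 1.5-fold, which 6.72% of 6886 genes did in the higher and 12.5% in the lower direction. Which receptors passed depended on the scale. Per cell none did, Fpr1 being at 1.48 (1.06 to 2.09), whereas with each cell thinned to 2500 UMIs Fpr1 (1.87, 1.21 to 2.92), C5ar1 (1.55, 1.26 to 1.91), Ltb4r1 (1.55, 1.25 to 1.92) and Ptafr (1.54, 1.04 to 2.31) did.

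The libraries had different mixtures of neutrophil stages, however. Mature cells made up 128 of 515 neutrophils in Col1a1fspKO and 51 of 427 in WT, and cluster 4 made up 88 and 120. When the stages of Col1a1fspKO were weighted as in WT, the ratio was 1.08 for Fpr1 and 1.08 for C5ar1. For Ptafr it was 1.2 and for Fpr2 0.95. Ltb4r1 remained at 1.44. The weighted value of C5ar1 averages stages with ratios on both sides of 1, 0.48 in cluster 4 and 1.37 in mature cells.

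Within stages, Ltb4r1 was higher in Col1a1fspKO in cluster 4 (1.43-fold, 1.08 to 1.89) and in immature cells (1.58-fold, 1.23 to 2.04). In maturing cells the interval touched 1 (1.34-fold, 0.99 to 1.84) and in mature cells the libraries did not differ beyond counting error (1.09-fold, 0.65 to 1.88). A difference of the same direction was seen in monocyte cluster 0 (1.44-fold, 1.04 to 2.01). In monocyte clusters 9 (1.51, 0.75 to 3.17) and 11 (0.74, 0.39 to 1.36) the intervals included 1. Over all monocytes the interval included 1 in CPM (1.24, 0.96 to 1.62) and excluded it after thinning (1.63, 1.02 to 2.65). A single WT cell gave 13 of the 100 UMIs of Ltb4r1 in cluster 4, so that cell lowered the ratio there. After thinning, Ltb4r1 was still higher in Col1a1fspKO in immature cells (94 against 50 UMIs, 1.88-fold, 1.32 to 2.71) and in monocyte cluster 0 (44 against 28 UMIs, 1.71-fold, 1.04 to 2.85). In cluster 4 the thinned interval included 1 (29 against 23 UMIs, 1.72-fold, 0.96 to 3.11).

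C5ar1 in cluster 4 went the other way, with 22 UMIs in Col1a1fspKO and 60 in WT (26.3 against 55.3 CPM, ratio 0.48, 0.28 to 0.79). With cells thinned to 2500 UMIs, 10 and 17 UMIs were left and the interval included 1 (0.80, 0.33 to 1.85). In mature cells C5ar1 was at 395 and 289 CPM, a ratio of 1.37 (0.99 to 1.90). There thinning left 134 and 32 UMIs and a ratio of 1.67, with an interval that excluded 1 (1.13 to 2.54). That interval does not cover the error of the random draw. The 9 UMIs of C5ar1 in granulocyte-monocyte progenitor-like cells of Col1a1fspKO stood against 0 in WT. Their number was too small for a statement beyond these counts.

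In mature cells, 1 of the 5 receptors was at least 1.5-fold higher in Col1a1fspKO, Ptafr (38 against 11 UMIs, 1.51-fold, 0.75 to 3.27), and none was 1.5-fold lower. Of 1854 genes tested there, 12.9% were 1.5-fold higher and 10.7% lower, so the receptors' count was near the background. In the single draw of thinned cells, C5ar1 (1.67) and Fpr1 (1.75, 0.87 to 3.91) were past 1.5-fold and Ptafr was at 1.49 (0.67 to 3.77). Fpr1 (1.2, 0.71 to 2.11) and Fpr2 (0.93, 0.68 to 1.30) did not differ beyond counting error between mature cells of the libraries.

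In CPM of monocytes, C5ar1 and Ptafr were at least 1.5-fold lower in Col1a1fspKO, and none of the 4 receptors with enough UMIs was 1.5-fold higher. Of 8105 genes, 7.33% were 1.5-fold lower and 6.93% higher. After thinning neither C5ar1 nor Ptafr was past 1.5-fold, whereas Ltb4r1 was higher (1.63, 1.02 to 2.65). Ptafr was at 16.3 CPM (32 UMIs) in Col1a1fspKO against 31.0 CPM (60 UMIs) in WT, a ratio of 0.53 (0.33 to 0.82), and in cluster 0 the ratio was 0.41 (0.22 to 0.72). Thinning left 19 and 22 UMIs over all monocytes and a ratio of 0.89 (0.46 to 1.73). In cluster 0 it left 13 and 19 UMIs and a ratio of 0.74 (0.34 to 1.59), and both intervals included 1. This thinning was a single random draw. Every other alternative processing kept the ratio of Ptafr over all monocytes within 0.33 to 0.82. C5ar1 was at 7.63 and 14.5 CPM, with an interval that included 1 (0.53, 0.26 to 1.02), and thinning left 9 and 10 UMIs and a ratio of 0.93 (0.33 to 2.55). Markers of conventional dendritic cells were summed to 41.1 CPM in cluster 0 of Col1a1fspKO and 68.7 CPM in that of WT, with Clec9a at 0 in both, and those of Ly6C-low monocytes to 151 and 147 CPM. Their part in the level of Ptafr was not tested.

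**Figure D4:**
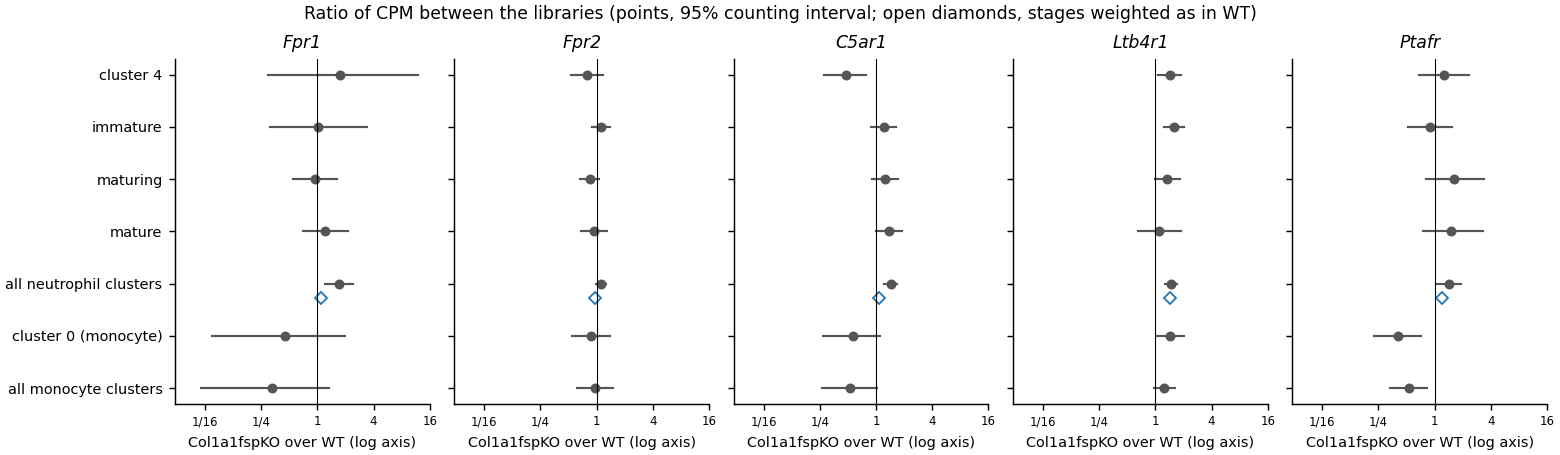
Ratio of the CPM of each receptor in Col1a1fspKO over WT (x axis, log scale) by cluster or class (y axis), with bars for 95% counting intervals and open diamonds for all neutrophils with the stages weighted as in WT. Weighting moves Fpr1 from 1.70 to 1.08 and C5ar1 from 1.44 to 1.08 and leaves Ltb4r1 at 1.44, and Ptafr, before thinning, lies below 1 in monocytes.

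The targeted gene could not check the genotypes, since Col1a1 had 3 UMIs in Col1a1fspKO and was not listed in WT, and flushed marrow holds few cells that make collagen I. S100a4, whose promoter drives the Cre, had 2026 and 2184 UMIs in the 2 libraries.

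Of 22 related receptors, 14 were in the tables and 11 had at least 20 UMIs. The background for this and the following lists is all 11109 genes with at least 20 UMIs. Of these, 580 were 2-fold higher in mature than in other cells of both libraries and 6179 were 2-fold lower. Of the 11 related receptors, 2 were 2-fold higher and 3 were 2-fold lower, with a median ratio of 1.71. The higher ones were Cxcr2, the receptor for CXCL1 and CXCL2 that draws neutrophils out of marrow, at 14.6 times the level of other cells, and C5ar2, the second C5a receptor, at 10.1 times. Ptger2 was the third in this order, with 2.04, on 2 UMIs in mature cells of each library. Of the lower ones, Cysltr1, a receptor for cysteinyl leukotrienes, and S1pr1, which guides lymphocytes out of tissue, had no UMI in mature cells. Ptger4, a prostaglandin E2 receptor, was at 0.18, on 1 UMI in mature cells. The neighbours C5ar1 and C5ar2 were thus both higher in mature neutrophils than in other cells. In mature cells C5ar2 was at 38.8 CPM, on 19 and 4 UMIs, and C5ar1 at 362 CPM. Ltb4r2 had 3 UMIs in all cells beside 1081 of Ltb4r1.

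Among ligands and enzymes of lipid mediators, 16 of 18 listed genes had enough UMIs, of which 5 were 2-fold higher and 5 lower in mature cells, with a median of 1.03. The highest were Cyp4f18, which breaks down leukotriene B4, at 7.91 times the level of other cells, Lpcat2, which makes platelet-activating factor, at 5.79 times, and Alox5, the 5-lipoxygenase of leukotriene synthesis, at 4.04 times. Lta4h, which completes leukotriene B4, was at 0.31. The lowest were Ltc4s of cysteinyl leukotriene synthesis and Pafah2, with no UMI in mature cells, and Pafah1b3, at 0.09 (3 and 4 UMIs). On the same measure, mature over all other cells, Ltb4r1 was at 2.16. Cyp4f18 was 1.77-fold higher in mature cells of Col1a1fspKO than of WT (81 against 20 UMIs, 1.07 to 3.04).

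Of the 25 genes that couple these receptors to movement, 4 were 2-fold higher in mature cells and 1 was lower, with a median of 1.70. Vasp, an actin regulator, was at 3.79, Plcb3, a phospholipase C, at 3.17 (6 and 2 UMIs in mature cells) and the Src-family kinase Fgr at 3.12. The G protein subunits Gng10 (0.07), Gna15 (0.60) and Gnaq (0.67) were the lowest. In mature cells of Col1a1fspKO and WT they had 1 and 0, 8 and 0, and 5 and 3 UMIs. Among 10 genes of desensitization, 1 was higher and 2 lower, with a median of 1.25. The arrestin Arrb2 (2.31), Rgs14 (2.30) and Rgs18 (2.16) were the highest. The lowest were Rgs1 (no UMI in mature cells), Grk5 (0.33, on 1 UMI in mature cells) and Adrbk1, which encodes the kinase GRK2 (0.75). Rgs18, a regulator of G protein signalling, was lower in mature cells of Col1a1fspKO (57 against 45 UMIs, ratio 0.55, 0.37 to 0.84). In monocytes, Cxcr4 was lower in Col1a1fspKO (0.56, 0.44 to 0.71) and Camp, a granule transcript of immature neutrophils, higher (1.60, 1.51 to 1.70). Cluster 0 went the other way for Camp, with 1377.8 CPM in Col1a1fspKO against 1684.5 in WT. Clusters 9 (1948 against 317 CPM) and 11 (1732 against 307 CPM) gave the rise. Ngp, another neutrophil transcript, was at 1379 against 705 CPM over all monocytes. The part of neutrophil RNA in these values was not tested.

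**Figure D5:**
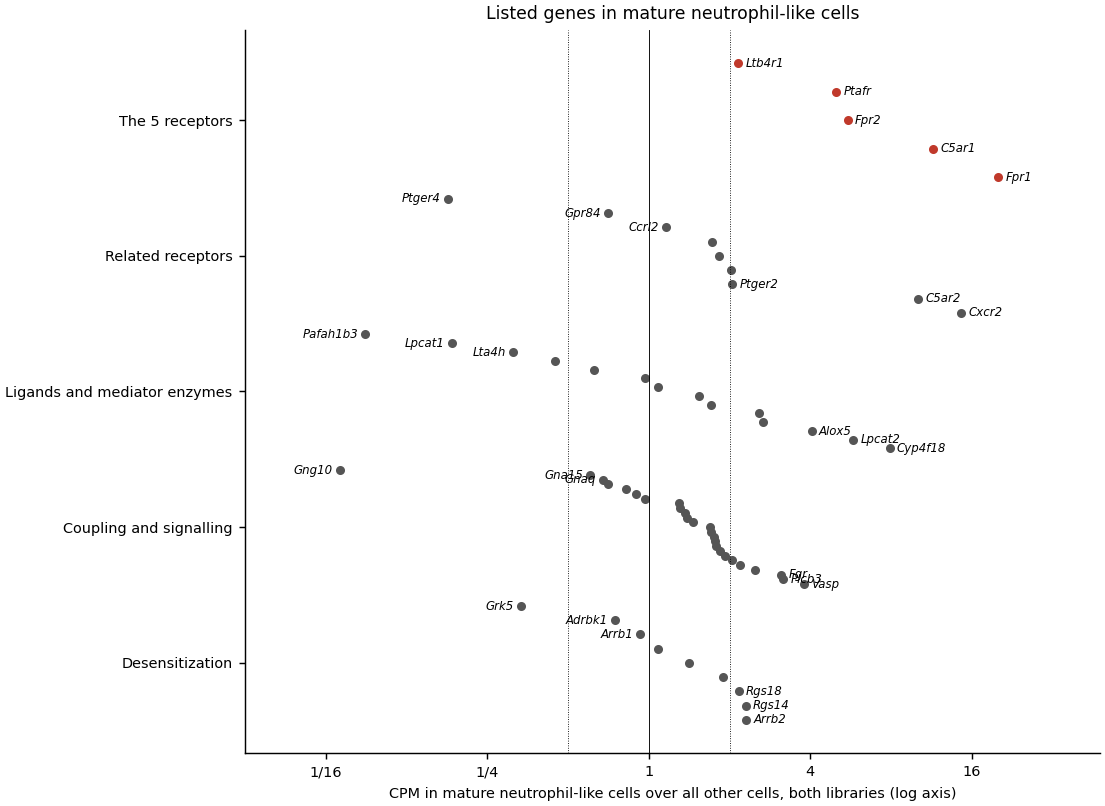
CPM in mature neutrophil-like cells over all other cells of both libraries (x axis, log scale) for each listed gene with at least 20 UMIs (points) in 5 lists (y axis), with lines at ratios of 0.5, 1 and 2. Genes without a UMI in mature cells are not drawn. Fpr1 (20.1), C5ar1 (11.5), Cxcr2 (14.6) and C5ar2 (10.1) lie furthest to the right.

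The genes most like each receptor were sought by Pearson correlation over 30 profiles (15 clusters in 2 libraries) among 9725 genes with at least 50 UMIs. The profiles share libraries and depth, so these values are descriptions. Fpr1 was most like Gpr27 (r = 0.97), Retnlg (0.96), which is the leading gene of the mature cluster, Il1rn (0.94), Scrg1 (0.94) and Ceacam10 (0.94). Fpr2 was most like Cd33 (0.95), Slfn4 (0.95), 1700047M11Rik (0.95), Mmp9 (0.94), the gelatinase of maturing neutrophils, and Cd177 (0.94), with C5ar1 at rank 7. C5ar1 was most like 1700047M11Rik (0.98), Slfn4 (0.97), Cd33 (0.96), Crispld2 (0.96) and Pilra (0.96). The profiles of Fpr2 and C5ar1 over both libraries thus had 3 of their 5 nearest genes in common. Fewer were shared within a library, only 1700047M11Rik in WT alone, and 1700047M11Rik and Slfn4 in Col1a1fspKO alone. Ltb4r1 was most like F630028O10Rik, Hp, Mcemp1, Sqrdl and Nhsl2 (all 0.94), and its correlation with Fpr1 was 0.61. Ptafr was most like Plaur (0.90), A530064D06Rik (0.89), Fgr (0.89), Cib2 (0.88) and Pirb (0.88), with lower values than the other receptors had.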

How the data were processed

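Bone marrow cells were profiled with the 10x Genomics 3′ v2 kit, 1 library per genotype. Each table the authors deposited gives the UMI counts of genes by cells, not normalized. They came from Cell Ranger (version not given in the sources used here), with Seurat 3.5.3 and mm10 also named in the submitters' processing notes. A gene listed for 1 library was taken as 0 in the other. The stated limits of 200 to 7000 genes and 10% mitochondrial UMIs removed 0 cells. Median depth per cell was 4954 UMIs for Col1a1fspKO and 5534 for WT.

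Counts were merged, log-normalized and clustered in Seurat 5.3.0 (R 4.3.3) on 1989 variable genes, with 27 principal components and resolution 0.8. From 2000 variable genes, 11 were left out. The genes barred from clustering were the receptors, the listed genes, Xist, Ddx3y, Eif2s3y, Kdm5d, Uty and all genes whose names start with Ly6. A cluster took the class whose markers scored best (mean z-score over clusters, on log2(CPM + 10)). It was left without a name where its 10 leading genes held more markers of a different class, or where fewer than 3 markers were found in 10% of cells. This rule was written after the clusters were seen. UMIs were summed per class and library (Python 3.11.15, scipy 1.17.1). Ratios have exact binomial intervals, which cover counting error only. Counts of genes past the fold took genes with 20 UMIs or more, at 1.5-fold between libraries and 2-fold between classes. This is a rule of size and not a test. Ratios of the 5 receptors themselves had no minimum of UMIs. Named genes are the 3 highest and 3 lowest of each list in mature cells, every listed gene past 1.5-fold between libraries with an interval that excluded 1, and the 5 genes most like each receptor. The stage weighting and cluster 0 alone were chosen after seeing the data. Ltb4r2, Lta4h and the pairs of receptors shown in single cells were also chosen after their values were seen. The receptors and lists were chosen with earlier results of these data known. The ratio and its interval were tested on simulated data. Doublets were kept (scanpy 1.11.5 Scrublet called 5 in each library).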

Additional observations from a re-analysis of the deposited data

Results flagged for a closer look

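Ptafr differed in direction between cell types under the same contrast. Its level in Col1a1fspKO over WT was 1.41 over all neutrophil clusters (interval 1.05 to 1.91) and 0.53 in monocyte-like cells (0.33 to 0.82). With 1 library per genotype this difference was not tested. With the neutrophil stages weighted as in WT the first ratio was 1.2, and with cells thinned to 2500 UMIs the second was 0.89 (0.46 to 1.73). The thinning was a single random draw, and no other alternative moved the second ratio out of its interval.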

How the results depend on the processing

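Of 715 values recomputed under alternatives, 634 stayed within the counting interval of the reported value (counts within 1.5 times), 81 moved outside it, and 0 that were past the fold with an interval excluding 1 changed direction. Of the 81, 39 are given below and the other 42 were levels in all neutrophils (23 values), immature cells (12) and monocytes (7). The following are log2 ratios. Mature over immature cells in Col1a1fspKO, with resolution 0.4, which merges maturing with mature cells, was 0.99 for C5ar1 and -0.28 for Ltb4r1. With CCA integration it was 2.21 for C5ar1. Counted as UMIs per cell it was -0.28 for Fpr2, 0.98 for C5ar1 and -1.30 for Ltb4r1. Col1a1fspKO over WT in all neutrophils, with stages weighted as in WT, was 0.12 for Fpr1, -0.08 for Fpr2 and 0.11 for C5ar1, and as UMIs per cell -0.04 for Fpr2. In mature cells CCA integration gave 0.95 for C5ar1. In monocytes, thinning to 2500 UMIs gave 0.71 for Ltb4r1 and -0.16 for Ptafr. The cause of these moves was not tested.

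Levels in mature cells under resolution 0.4 were 95.2 CPM for Fpr1, 288 CPM for C5ar1 and 189 CPM for Ltb4r1 in Col1a1fspKO, and 209 CPM for C5ar1 in WT. CCA integration gave 234 CPM for Fpr2 and 590 CPM for C5ar1 in Col1a1fspKO. Leaving the 20 most abundant genes out of the total raised all 5 by construction, in Col1a1fspKO and WT to 265 and 225 CPM for Fpr1, 598 and 653 for Fpr2, 786 and 586 for C5ar1, 265 and 248 for Ltb4r1 and 183 and 124 for Ptafr. Thinning lowered the share of WT mature cells with a UMI to 17.6% for Fpr1 and 45.1% for C5ar1. Of the 5 most similar genes, WT alone shared 1 for Fpr1, 2 for C5ar1 and 2 for Ptafr. Col1a1fspKO alone shared 2 for Fpr1, Ltb4r1 and Ptafr and 3 for Fpr2 and C5ar1.

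No paired analysis was possible because each genotype had 1 library, which also left no replicate to leave out. The levels of low receptors are limited by depth, as Fpr1 had 75 UMIs in all mature cells.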
